A study of Mus musculus with 12 samples.

Results

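In 6 of 12 mouse prostate tumours, transcripts of 3 seminal vesicle genes made up at least 3% of all RNA counts. Svs2, Svs4 and Svs5 encode major proteins of seminal vesicle fluid. Their summed raw counts, as a percentage of all counts in a library, placed the 12 libraries in a high class (3% or more, 6 libraries) and a low class (under 3%, 6 libraries). The classes were thus chosen on measured values. The high libraries were IgG replicate 2, anti-CSF1 replicates 1 and 2, Lupron replicate 2, and Lupron/anti-CSF1 replicates 2 and 3.

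The tumours grew in C57BL/6J mice after 100000 PTE-82 cells, a TMPRSS2-ERG+ prostate cancer line, had been placed in the prostate in 40 µl of PBS and Matrigel. The IgG, anti-CSF1, Lupron and Lupron/anti-CSF1 groups had 3 tumours each, and all 12 came from the same line and strain. Lupron, a drug that lowers testosterone through the pituitary, was injected on day 4 (0.6 mg per animal), and the antibody against CSF1, a macrophage growth factor, on days 9 and 14. Tumours were frozen on day 17 after perfusion with PBS. The labels used here do not state mouse age, whether the Lupron groups received control IgG, the lobe injected, the margin of the resection or whether each tumour came from its own mouse. P-values therefore measure the spread between these samples, which may be partly technical.

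The seminal vesicles are paired glands of the male tract that arise from the Wolffian duct, whereas the prostate arises from the urogenital sinus. Their epithelium depends on androgen and secretes a few proteins in very large amounts, among them the Svs proteins that form the copulatory plug when the prostate enzyme transglutaminase 4 crosslinks them. In the mouse the anterior prostate, also called the coagulating gland, lies directly along the seminal vesicle.

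Of the Svs genes, 6 lie within 98.466 kb on chromosome 2 (GRCm38.p6, 164235929 to 164334394), in the order Svs2, Svs3b, Svs4, Svs3a, Svs6 and Svs5. RefSeq promoters of 4 of them are shown because the members of this cluster were high in the same libraries. Each is the 250 bases before the annotated start, from 5′ to 3′ on the strand of the gene, and capitals mark matches to AGAACA on either strand (TGTTCT on the other), the half-site bound by the androgen receptor and related steroid receptors. Svs5 lies on the plus strand (chr2:164332515-164332764) and so does Svs6 (chr2:164316501-164316750), while Svs2 (chr2:164238342-164238591) and Svs4 (chr2:164278308-164278557) lie on the minus strand.
Svs5: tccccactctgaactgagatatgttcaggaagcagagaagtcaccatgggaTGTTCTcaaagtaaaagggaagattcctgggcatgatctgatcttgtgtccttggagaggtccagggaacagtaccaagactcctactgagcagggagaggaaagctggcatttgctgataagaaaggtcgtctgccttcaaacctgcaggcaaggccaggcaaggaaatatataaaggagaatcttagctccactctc
Svs6: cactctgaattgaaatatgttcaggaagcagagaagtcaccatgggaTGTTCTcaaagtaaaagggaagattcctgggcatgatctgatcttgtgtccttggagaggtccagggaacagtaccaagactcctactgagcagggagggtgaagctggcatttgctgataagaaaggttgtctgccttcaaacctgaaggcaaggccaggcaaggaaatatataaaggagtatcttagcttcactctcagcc
Svs2: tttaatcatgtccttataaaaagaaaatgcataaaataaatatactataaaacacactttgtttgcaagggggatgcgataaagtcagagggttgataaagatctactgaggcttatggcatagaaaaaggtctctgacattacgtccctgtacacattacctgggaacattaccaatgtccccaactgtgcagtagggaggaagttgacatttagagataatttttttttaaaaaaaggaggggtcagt
Svs4: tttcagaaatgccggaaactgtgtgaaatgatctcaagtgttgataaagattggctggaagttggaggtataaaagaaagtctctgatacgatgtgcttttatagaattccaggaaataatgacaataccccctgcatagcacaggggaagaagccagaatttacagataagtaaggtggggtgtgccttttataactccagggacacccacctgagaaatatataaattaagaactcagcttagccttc
The windows of Svs5 and Svs6 were 93.3% identical in alignment (237 of 254 columns), and those of the neighbours Svs3a and Svs3b 97.6% (244 of 250). Svs5 shared 45.5% with Svs2 and 56.2% with Svs4. A half-site was present in the windows of Svs5, Svs6, Svs3a, Svs3b, Sva, Svs1 and Ceacam10 and not in those of Svs2 and Svs4. Among 27025 mouse promoters, 16.2% held one in a window of this length. The full palindrome, AGAACA followed after 3 bases by TGTTCT, was found in none of the windows of the 9 seminal vesicle genes examined and in 1 of all promoters (0.0037%). These matches describe letters only. Only promoter windows were aligned, not transcripts. Whether Svs3a and Svs3b, or Svs5 and Svs6, exchange reads was therefore not tested, and their separate counts are uncertain to that extent.

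Library totals ran from 20584363 to 29965355 counts, and 15082 of 23479 gene symbols had enough counts to be tested. Levels are CPM, read counts relative to the library total after scaling by edgeR's TMM factor. IgG replicate 3, a low library, stood apart from the rest: its median Pearson correlation with the other libraries on the scale of log2(CPM + 1), across genes, was 0.756, against 0.934 to 0.974 for the other 11. It held 1268676 counts of Sbp, the prostate spermine-binding protein gene, or 4.82% of its total, where no other library had more than 39. Results that rest on it are given with and without it. Erg, the ETS factor gene named in the fusion, lay at 10.7, 15.1 and 17.3 CPM (lowest, median, highest) in the high class and at 8.01, 16.8 and 22.4 in the low class (log2 difference -0.36 ± 0.20 SE, edgeR quasi-likelihood test, Benjamini-Hochberg adjusted p = 0.670), with the lowest value in IgG replicate 3. Whether transcripts of the fusion are counted under this mouse gene symbol was not tested, so these levels are not read as fusion expression or tumour content.

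The share of Svs2, Svs4 and Svs5 spanned 1147-fold. It was 26.9% in Lupron replicate 2, 9.56% in IgG replicate 2, 8.43% in anti-CSF1 replicate 1, 6.64% in Lupron/anti-CSF1 replicate 3, 4.68% in anti-CSF1 replicate 2 and 4.25% in Lupron/anti-CSF1 replicate 2. In the low class it was 2.17% in Lupron replicate 3, 0.937% in Lupron replicate 1, 0.881% in IgG replicate 1, 0.370% in Lupron/anti-CSF1 replicate 1, 0.0421% in IgG replicate 3 and 0.0235% in anti-CSF1 replicate 3. The high libraries differed among themselves by 6.34-fold and the low ones by 92.4-fold, while only 1.96-fold separated the members on either side of the threshold, 4.25% (95% exact binomial interval 4.24 to 4.25) and 2.17% (2.16 to 2.17). No low library was free of these transcripts, and the lowest had a 95% interval of 0.0229% to 0.0240%. Intervals cover counting error only. In bulk tissue, less of the tissue that makes Svs transcripts and less RNA per cell cannot be told apart. Which tissue made them was not tested.

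**Figure D1:**
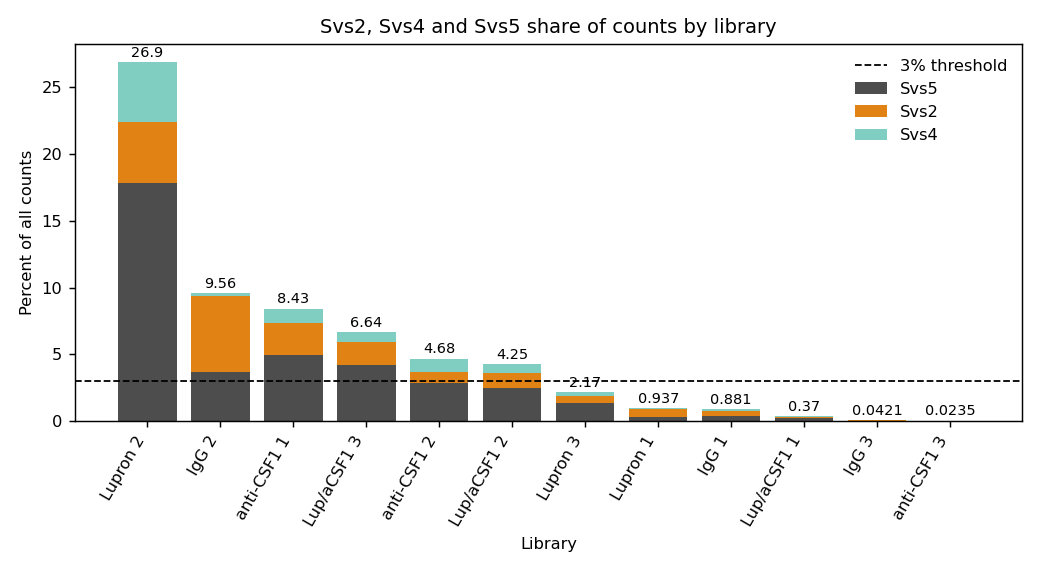
Stacked bars give Svs5, Svs2 and Svs4 as a percentage of all counts (vertical axis) in each of the 12 libraries (horizontal axis), and the dashed line marks 3%. The 6 high libraries lie between 4.25% and 26.9%, and in IgG replicate 2 most of the bar is Svs2.

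Neither treatment separated the classes. High libraries numbered 1 of 3 in IgG, 2 of 3 in anti-CSF1, 1 of 3 in Lupron and 2 of 3 in Lupron/anti-CSF1. The share with Lupron had a lowest, median and highest value of 0.370%, 3.21% and 26.9%, and without it 0.0235%, 2.78% and 9.56%. On the log2 scale the mean was 1.79 higher with Lupron (exact permutation test, two-sided, 6 against 6, p = 0.342, adjusted over 2 tests 0.684). With anti-CSF1 the values were 0.0235%, 4.46% and 8.43%, and without it 0.0421%, 1.55% and 26.9%, a mean log2 difference of -0.17 (exact permutation test, p = 0.926, adjusted 0.926). The groups overlapped over most of their range in both cases. The difference for anti-CSF1 took the other sign when any 1 of 4 libraries was left out: 0.34 without IgG replicate 2, 1.02 without anti-CSF1 replicate 3, 0.64 without Lupron replicate 2 and 0.23 without Lupron/anti-CSF1 replicate 1. By replicate number, 4 of 4 libraries numbered 2 were high, against 1 of 4 numbered 1 and 1 of 4 numbered 3. The labels do not state what the numbers stand for.

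RNA quality in the labels overlapped between the classes. The RNA integrity number was 9.03 ± 0.561 (SD, n = 6) in the high and 9.13 ± 0.266 (n = 6) in the low class (exact permutation test, two-sided, p = 0.747). The ratio of 28S to 18S area was 1.42 ± 0.436 and 1.75 ± 0.339 (exact permutation test, p = 0.180, adjusted over 3 tests 0.539), and the RNA concentration was 274 ± 67.4 and 294 ± 63.4 ng per µl (exact permutation test, p = 0.597). The difference in integrity number, -0.10, was 0.067 with IgG replicate 2 left out.

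Of 14 seminal vesicle genes listed, 12 passed the filter on low counts. The list holds Svs2, Svs4 and Svs5, whose differences the rule fixed, and Sval2, which passed the filter only through the high libraries. The other 8, each with enough counts in the low libraries as well, had fitted log2 differences between high and low libraries, within treatments, of 4.94 (Ceacam10) to 6.86 (Sva), with a median of 5.45. Over all 15082 genes the median was -0.02, and 7203 were positive. Since the 8 genes come from the same libraries and tissue as the rule, their differences are described, carry no test and support nothing. Sval2 had 76 counts over the high libraries and 0 over the low ones, at least 30.5-fold higher against a floor of 3 counts over the group. Sval1 and Sval3, relatives of Sva, lay at or near 0 in all libraries. The whole list took 29.9% of the counts of Lupron replicate 2 and 0.0287% of those of anti-CSF1 replicate 3.

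Svs5 had a lowest, median and highest level of 26854, 39612 and 231350 CPM in the high class and of 154, 2408 and 12514 CPM in the low class, with no overlap. Svs2, the main plug protein, had 8604, 21283 and 59058 CPM against 51.9, 1771 and 5971, also without overlap. Svs4 had 2233, 8904 and 58116 CPM against 23.7, 512 and 2429. For Svs4 the classes touched, because IgG replicate 2 (2233 CPM) lay below Lupron replicate 3 (2429 CPM).

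Among the genes not used by the rule, Pate4, which encodes the small cysteine-rich protein once named SVS VII, had 905, 1994 and 10139 CPM in the high class and 5.37, 252 and 615 in the low class. Sva, the seminal vesicle antigen, had 217, 405 and 2826 CPM against 0, 3.58 and 210. Spinkl, a Kazal-type protease inhibitor, had 340, 598 and 4867 CPM against 1.01, 19.2 and 186. These 3 genes did not overlap between the classes, and neither did Svs3a, Svs3b and Svs6. Over all genes tested, 25 (0.166%) had every high library above every low one, and these 6 are among them. Svs1, an amine oxidase-like secreted protein, had 249, 1290 and 4029 CPM against 5.44, 18.4 and 429, and Ceacam10, an adhesion-molecule relative secreted by the gland, 550, 1658 and 6799 against 7.54, 38.5 and 584. Both overlapped through Lupron replicate 3, the low library nearest to the threshold. Across the 12 libraries, with treatment in the fit, each doubling of the rule's share went with a log2 difference of 0.87 to 1.04 in the 8 genes, with a median of 0.97.

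**Figure D2:**
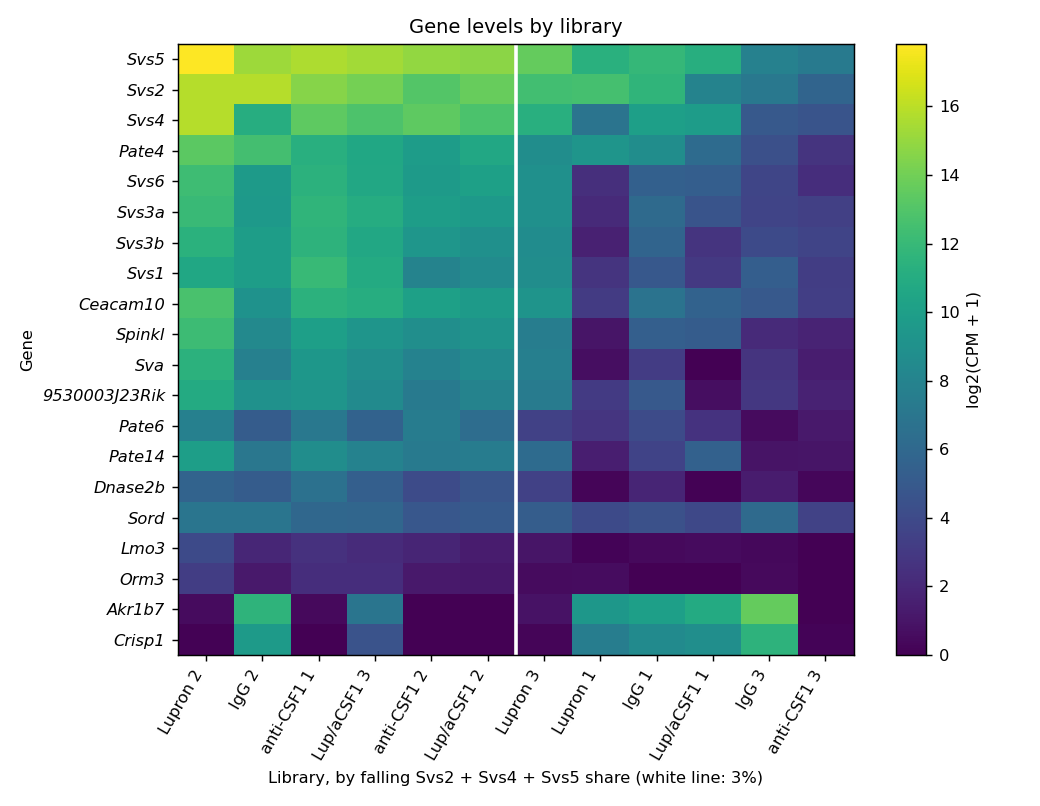
Colour gives log2(CPM + 1) for 20 genes (rows) in the 12 libraries (columns), ordered from the highest to the lowest share of Svs2, Svs4 and Svs5, with a white line at 3%. Seminal vesicle and PATE genes darken to the right, whereas Akr1b7 and Crisp1 at the bottom are high in a different set of libraries.

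The proportions among these transcripts were not constant. They were compared between libraries as counts per 100 Svs5 counts, which says nothing of levels between genes because gene lengths differ. In 10 libraries Svs2 had 11.2 to 90.0 counts per 100 of Svs5, but it had 155 in IgG replicate 2 and 234 in Lupron replicate 1. The same pair had the lowest Svs4 values, 5.99 and 4.50, where the other 10 had 13.4 to 40.1, and the highest Pate4 values, 15.8 and 24.1, where the others had 2.95 to 11.8. Lupron replicate 1 also had the lowest value of all 12 libraries for Svs6 (0.167, others 1.16 to 5.63), Svs3a (0.129, others 1.05 to 6.55), Ceacam10 (0.296, others 1.47 to 13.5) and Spinkl (0.0398, others 0.913 to 2.11). Its CPM for Svs2 (5971) and Pate4 (615) were the highest of the low class, while it had only 0.61 CPM of Sva. The pair spans the threshold and both carried Akr1b7 and Crisp1, described below. No test was made, since the libraries were singled out by their values.

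**Figure D3:**
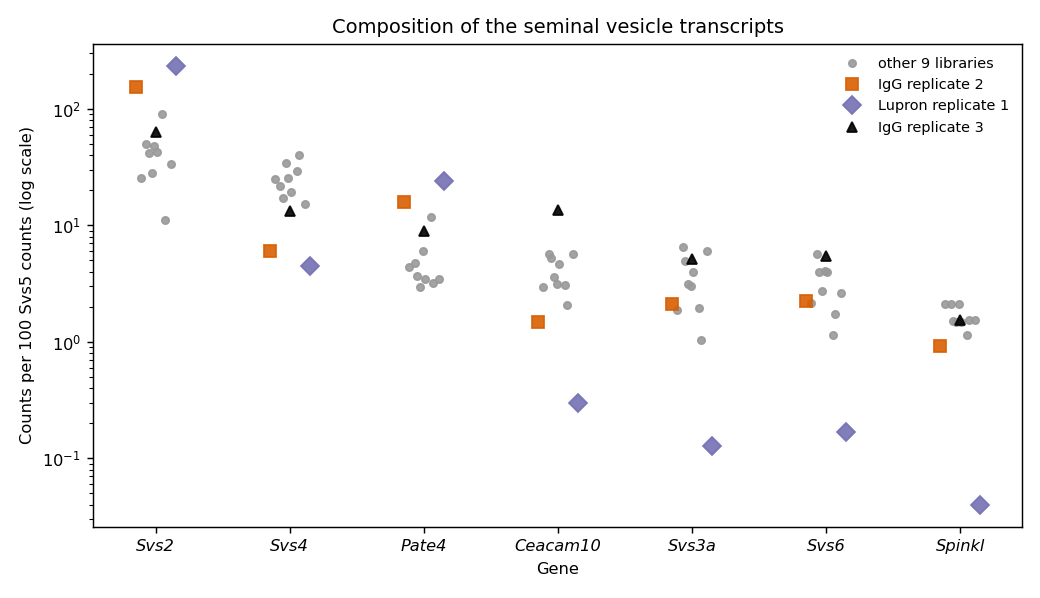
Points give the counts of 7 seminal vesicle genes per 100 Svs5 counts (vertical log axis) in each library, with 3 libraries drawn apart. IgG replicate 2 and Lupron replicate 1 sit at the top for Svs2 (155 and 234) and Pate4 and at the bottom for Svs4 (5.99 and 4.50), and Lupron replicate 1 is lowest in the 4 genes on the right.

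No gene, on this list or beyond it, passed the test of high against low libraries. With treatment as a factor, edgeR's quasi-likelihood test called 0 of 15082 genes (0%), and the smallest Benjamini-Hochberg adjusted p was 0.670. At an unadjusted p under 0.05 it had 1021 genes (6.77%), of which 567 were higher (3.76%) and 454 lower (3.01%) in the high class. Without IgG replicate 3 it also called 0 of 15196 (0%), with 7.53% higher and 8.18% lower at the unadjusted level. DESeq2's Wald test called 47 genes (0.312%), 42 higher (0.278%) and 5 lower (0.0332%). Of the 47, 37 were not on the seminal vesicle list and 8 were on it but outside the rule. The other 2 were Svs2 and Svs4, whose differences the rule fixed. The 37 include Lmo3, Orm3, Doxl2, Pate7 and Pate8, which passed the filter on low counts only through the high libraries. The direction of those calls, counted among the 42 higher, carries no weight. Svs5, also of the rule, was not called (DESeq2 Wald test, adjusted p = 0.216). With the share entered as a number (its log2) in place of the classes, edgeR called 5 genes (0.0332%). Svs2 and Svs5 are part of that share, so their calls are circular, and Pate4 is on the list, for which no test is drawn on. The remaining 2, Pate6 and Gm5420, are outside it, but their slopes are on the share that set the classes. Of the 25 genes with all 6 high libraries above all 6 low ones, 8 were on the list, Svs2 and Svs5 included, and for 6 genes (0.0398%) all high libraries lay below. The genes named below therefore did not pass edgeR's test in the comparison of the classes.

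The PATE genes, relatives of Pate4 that encode small secreted proteins of the Ly6 type in the male tract, lie on chromosome 9 between 35607093 and 36638602 (GRCm38.p6). The counts covered 13 family members, of which 7 passed the filter on low counts, Pate4 included. Of these, Pate2, Pate7 and Pate8 passed only through the high libraries, so the sign of their differences carries no weight. The 6 that did not pass had at most 44 counts over all libraries. Pate6 (D730048I06Rik in the table) had a lowest, median and highest level of 36.1, 109 and 219 CPM in the high class and 0.463, 5.39 and 15.5 in the low class, without overlap. Its log2 difference was 4.30 ± 0.93, and it stood higher in the high class in 4 of 4 treatments. Per doubling of the share it rose by 0.90 ± 0.09 on the log2 scale (edgeR quasi-likelihood test, adjusted p = 0.00626), and it was called in 12 of 12 fits that each left out 1 library, with slopes from 0.845 to 0.953 and an adjusted p of at most 0.0434. It was not called with replicate number as a block (slope 0.79 ± 0.10, edgeR adjusted p = 0.188). The share is also what set the classes, so these fits only describe how Pate6 moved with it. Pate14 (A630095E13Rik) had 134, 211 and 1012 CPM against 0.961, 6.38 and 73.6, again without overlap, and its slope of 0.97 ± 0.13 did not pass (edgeR adjusted p = 0.0625). Pate7 (Gm17727) lay under 3 CPM throughout and did not overlap either (0.213 to 2.29 against 0 to 0.196). Pate8 (Gm17689) had 0 to 15.9 CPM against 0 to 0.778 (4.74 ± 1.15). Pate2 and Pate9 overlapped, with differences of 1.64 ± 0.94 and 1.90 ± 1.14. These PATE genes other than Pate4 were chosen after their values were seen.

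Other genes with this pattern were of several kinds. The protein-coding gene 9530003J23Rik had 154, 448 and 1861 CPM in the high class and 0.587, 6.75 and 173 in the low class (log2 difference 6.25 ± 1.17). Only Lupron replicate 3, at 173 CPM, reached into the range of the high class, through anti-CSF1 replicate 2 at 154. Dnase2b, an acid DNase, had 15.7, 37.6 and 97.4 CPM against 0.0782, 0.872 and 9.83 without overlap (5.46 ± 1.23). Spink11, another Kazal-type inhibitor gene, had 3.30, 7.23 and 67.1 CPM against 0.0355, 0.617 and 3.06 without overlap (4.78 ± 1.14). Doxl2, the amine oxidase-like neighbour of Svs1 on chromosome 6, had at most 6.80 CPM in the high and 0.313 in the low class. Doxl2 passed the filter on low counts only through the high libraries. The long non-coding RNA Gm5420 had 2.42, 7.91 and 16.7 CPM against 0, 0.906 and 2.81, and its slope of 0.85 ± 0.11 passed (edgeR adjusted p = 0.0408) but in only 2 of the 12 fits without 1 library, and not with the replicate block (edgeR adjusted p = 0.354). These genes, too, were chosen after their values were seen.

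**Figure D4:**
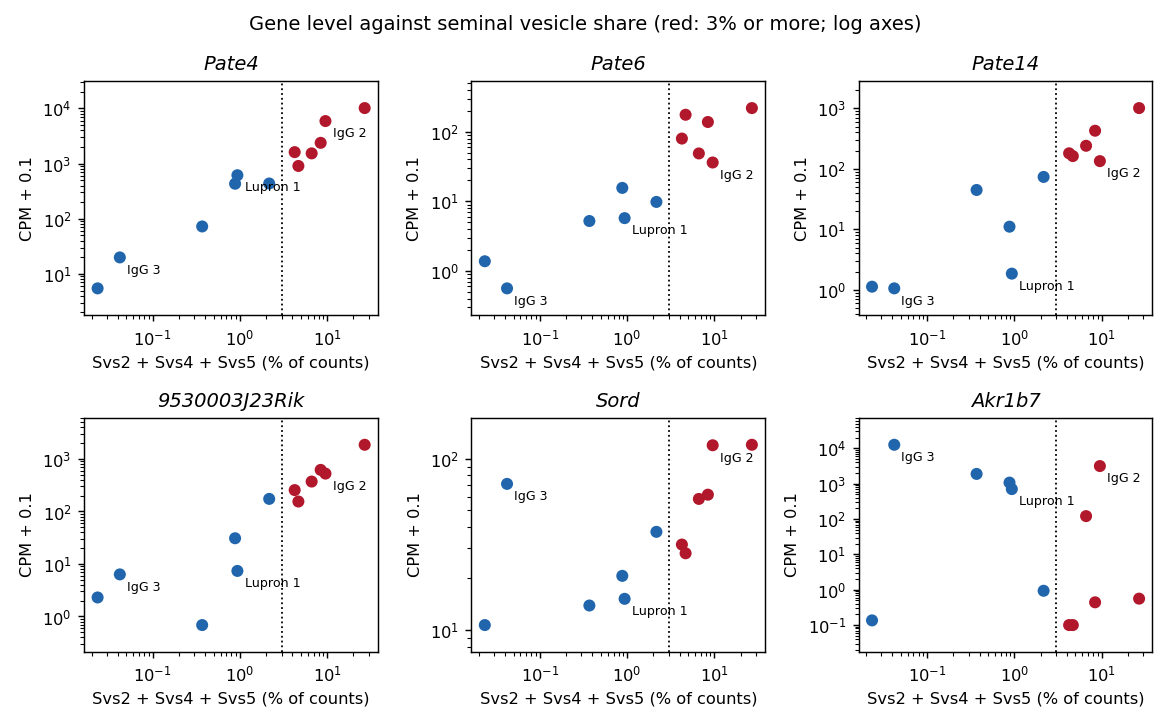
Each panel plots a gene's CPM + 0.1 against the share of Svs2, Svs4 and Svs5 (both axes log) for 12 libraries, red at 3% or more and blue below. Pate4, Pate6, Pate14 and 9530003J23Rik climb along the share, Sord does so apart from IgG replicate 3 (71.2 CPM), and Akr1b7 does not.

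With predicted genes and clone-named genes such as 9530003J23Rik and Gm5420 left out, the 8 genes with the smallest p on the higher side were taken. Of these, Svs2, Svs5, Svs6 and Pate4 are on the list and the other 4 are Fam46d, Lmo3, Sord and Il15ra. Sord, sorbitol dehydrogenase, makes the fructose of seminal fluid. It had 28.0, 59.9 and 121 CPM in the high class and 10.6, 17.9 and 71.2 in the low class (log2 difference 1.85 ± 0.40, edgeR adjusted p = 0.670). IgG replicate 3 gave the 71.2, Lupron replicate 3 had 37.3, and the other 4 low libraries were below every high one. Without IgG replicate 3 the difference was 2.10. Lmo3, a LIM-domain transcription cofactor, had 1.60, 3.15 and 15.1 CPM against 0, 0.331 and 0.973 without overlap (3.98 ± 0.81, edgeR adjusted p = 0.670). Lmo3 passed the filter on low counts only through the high libraries, so the sign of its difference carries no weight. Fam46d, named Tent5d in RefSeq and a poly(A) polymerase relative, had 1.92, 2.26 and 6.08 CPM against 0.304, 0.402 and 1.60, also without overlap (2.51 ± 0.48). Il15ra, the receptor chain that presents interleukin 15, differed by less, 0.63 ± 0.14, and overlapped (14.1 to 41.1 against 11.2 to 23.2 CPM). All 4 stood higher in the high class in 4 of 4 treatments, and DESeq2 called all 4, which carries no weight for Lmo3.

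Epithelial transporters, enzymes and transcription factors appeared further down, all chosen after their values were seen and none passing edgeR's test (adjusted p = 0.670 each). Slco1a5, an organic anion transporter, had 12.5, 20.3 and 61.6 CPM against 0.498, 6.59 and 10.6 without overlap (2.09 ± 0.53). Orm3, an orosomucoid, did not overlap either (1.17 to 8.43 against 0 to 0.473 CPM, 4.90 ± 1.11). Orm3 passed the filter on low counts only through the high libraries, so the sign of its difference carries no weight. Cdo1, cysteine dioxygenase, had 16.6, 71.4 and 302 CPM against 1.85, 21.1 and 81.7 (2.69 ± 0.61). Elf5, an ETS factor of secretory epithelium, had 10.8, 23.9 and 62.9 against 0.178, 5.87 and 22.9 (2.93 ± 0.67). Ggt1, gamma-glutamyltransferase, and Slc6a14, an amino acid transporter, differed by 2.47 ± 0.70 and 2.44 ± 0.60 with overlap. Bhlha15, known as Mist1, a transcription factor of cells with heavy secretory load, lay at 1.66, 8.32 and 28.7 CPM in the high class and 0.284, 1.72 and 172 in the low class. IgG replicate 3 held the 172, so that the difference was 2.30 ± 1.28 with it and 3.25 without it, and -1.39 in the fit with no treatment term.

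On the lower side the 8 genes with the smallest p were Itga7, Palld, Ccbe1, Hk1, Map3k6, Gna11, Col14a1 and Zfp703, each with an edgeR adjusted p of 0.670. Their differences were small, from -1.17 ± 0.31 for Col14a1, a fibril-associated collagen, to -0.51 ± 0.13 for Gna11, a G protein subunit. Itga7, a laminin receptor chain, had 7.01, 20.3 and 27.3 CPM in the high class and 13.9, 16.0 and 40.3 in the low class (-0.85 ± 0.15). Its classes overlapped widely, and the fitted difference is the one within treatments. Palld, an actin-associated protein, had 28.6, 46.2 and 66.6 CPM against 54.0, 63.5 and 90.7 (-0.66 ± 0.14). Ccbe1, a factor of lymphatic vessel growth, differed by -0.99 ± 0.22, hexokinase gene Hk1 by -0.69 ± 0.17, kinase gene Map3k6 by -0.66 ± 0.17 and Zfp703, a zinc finger regulator, by -0.81 ± 0.21. All 8 overlapped, and all 8 were lower in the high class in 4 of 4 treatments. The 5 lower genes called by DESeq2 were Itga7, Palld, Ccbe1, Hk1 and Sparcl1.

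Genes of neighbouring parts of the male tract did not share the pattern. Akr1b7, the aldose reductase-like protein of the vas deferens, and Crisp1, a sperm-binding protein of the epididymis, were above 10 CPM in the same 6 libraries and under 1 CPM in the other 6. Akr1b7 stood at 12616 CPM in IgG replicate 3, 3154 in IgG replicate 2, 1890 in Lupron/anti-CSF1 replicate 1, 1073 in IgG replicate 1, 704 in Lupron replicate 1 and 121 in Lupron/anti-CSF1 replicate 3. In the other 6 it was at most 0.834 and Crisp1 at most 0.208. Of the 6 with both genes, 2 were in the high and 4 in the low class, and Crisp1 had 19.1 to 33.6 counts per 100 of Akr1b7. All 3 IgG libraries and none of the 3 anti-CSF1 libraries were among them. The fitted differences, -3.30 ± 2.31 and -4.15 ± 2.07, did not pass (edgeR adjusted p = 0.688 and 0.670), and that of Akr1b7 was 3.87 with replicate number as a block. The other 8 genes of the epididymis and vas deferens list, such as Lcn5 and Lcn8, were at or near 0, the highest being 0.676 CPM.

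Of the prostate secretion genes, Pbsn and Tgm4 varied without following the classes, whereas Spink1 followed them outside IgG replicate 3. Pbsn, the androgen-driven probasin, had 4.74, 1245 and 10225 CPM in the high class and 77.4, 1188 and 4821 in the low class (1.58 ± 1.02, edgeR adjusted p = 0.675). Tgm4, the plug-forming transglutaminase, had 3.41, 497 and 8218 CPM against 5.41, 190 and 1843 (1.80 ± 1.35, edgeR adjusted p = 0.707). The lowest level of both was in anti-CSF1 replicate 2, a library with 4.68% seminal vesicle transcripts. Spink1, a trypsin inhibitor listed under its older name Spink3, had 64.6, 117 and 618 CPM in the high class and at most 49.8 in the low class apart from 9270 in IgG replicate 3. Its difference was 4.62 ± 2.73 with that library (edgeR adjusted p = 0.671) and 5.16 without it. Msmb went the other way, with 0, 1.60 and 4.99 CPM in the high class against 0, 1.36 and 1207 (-4.24 ± 2.11, edgeR adjusted p = 0.670). IgG replicate 3 held the 1207, and without it the difference of Msmb was -1.94. Over the list, 5 of 9 tested genes were positive with a median of 0.32 (0.95 without IgG replicate 3).

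Lists of the other tissues and cells that a prostate tumour sample can hold were described in the same way, by counts and medians that carry no test, and none of their members passed edgeR's test. The luminal epithelium list had 15 of 18 genes positive and a median of 0.60. With all libraries 0 of 18 had an unadjusted p under 0.05 on the higher side (3.76% over all genes). Without IgG replicate 3 the median was 1.05, and 6 of 18 had such a p (7.53% over all genes). Its level, the mean of log2(CPM + 1), ran from 3.25 to 5.26 in the high class and from 2.60 to 4.10 in the low class, apart from 7.04 in IgG replicate 3. Smooth muscle had 11 of 14 positive (median 0.19), with 0 of 14 higher and 1 lower at an unadjusted p under 0.05. Without IgG replicate 3 its median was 1.03, with 4 of 14 higher and 1 lower. Basal epithelium had 4 of 10 positive (-0.11, and 0.63 without that library). Of the basal genes with the smallest p, the keratin genes Krt17 (at most 2.01 CPM) and Krt14 differed by 1.78 ± 0.69 and 0.98 ± 0.54. Krt15 and Dst differed by -1.36 ± 0.93 and -0.23 ± 0.20. Of the smooth muscle genes, smoothelin gene Smtn and Synpo2 differed by -0.40 ± 0.14 and -0.54 ± 0.51, against most of that list. Tagln and Cnn1 differed by 0.99 ± 0.77 and 0.96 ± 0.87. Each had an edgeR adjusted p of at least 0.670. The medians were 0.08 for prostate transcription factors (5 of 9 positive) and -0.07 for Wolffian duct factors (4 of 9 positive), which include Pax2 and the Hox genes of the duct. The part of these lists in the differences named above was not tested.

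Fat genes pointed the other way, with 0 of 9 positive and a median of -2.52 (-1.66 without IgG replicate 3). Their level reached 4.10 in the high class and 7.01 in the low class, the latter in IgG replicate 3. Urothelium had 1 of 5 positive (-1.10, and -0.26 without that library), mesothelium 0 of 4 (-0.65 and 0.11), skeletal muscle 1 of 8 (-0.64 and -0.20) and nerve and glia 2 of 7 (-0.34 and -0.01). Upk3a, a urothelial plaque protein, was at 294 CPM in IgG replicate 3 and at most 0.125 in the high class. The medians of the urothelium, mesothelium, skeletal muscle and nerve lists moved most of the way to 0, or past it, without that library, whereas 7 of 9 fat genes stayed negative.

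Lymphocyte genes were on the higher side in the fit within treatments. All 11 T cell genes were positive with a median of 0.74 (0.60 without IgG replicate 3), as were all 8 B and plasma cell genes (0.70 and 0.74). Over all genes tested, 7203 of 15082 were positive. The coreceptor gene Cd2 had 3.95, 4.36 and 13.9 CPM in the high class and 2.70, 3.64 and 8.55 in the low class (0.91 ± 0.27, edgeR adjusted p = 0.670). Among NK and cytotoxic genes, 5 of 8 were positive (0.25 and 0.04), and the granzyme gene Gzma had 7.11, 17.2 and 32 CPM against 2.06, 5.83 and 12.4 (1.49 ± 0.42, edgeR adjusted p = 0.670). The list levels overlapped between the classes, 1.91 to 3.10 against 1.20 to 2.98 for T cells. The differences of B and plasma cell genes began at 0.005, and their level had a median of 1.09 in the high and 1.20 in the low class. Neutrophils had 5 of 7 positive (0.64 and 0.43) and macrophages 8 of 12 (0.07 and -0.07), whose level spanned 3.74 to 6.66 in the high and 4.37 to 6.27 in the low class.

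Endothelial genes lay on the lower side, 0 of 9 positive with a median of -0.44 (-0.45 without IgG replicate 3). With all libraries 1 of 9 was lower at an unadjusted p under 0.05 (3.01% over all genes). Without IgG replicate 3 it was 5 of 9 (8.18% over all genes). Tek, the angiopoietin receptor, had 6.08, 8.53 and 10.9 CPM against 6.18, 12.0 and 16.9 (-0.45 ± 0.17, edgeR adjusted p = 0.670). Fibroblast genes had 4 of 11 positive (-0.14 and -0.39). At an unadjusted p under 0.05, 0 of 11 were lower with all libraries and 4 of 11 without IgG replicate 3. Proliferation genes had 9 of 18 positive (0.02 and -0.23), with 0 of 18 lower, and 2 of 18 without that library. Red blood cells had 1 tested gene of 5, with a difference of 0.88.

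Genes of the machinery that folds and exports secreted proteins showed small differences. Of 30 genes 19 were positive, with a median of 0.14 (0.13 without IgG replicate 3). The translocon subunit Sec61b had 99.9, 158 and 213 CPM in the high class and 72.6, 94.9 and 117 in the low class (0.71 ± 0.21), and the chaperone complex member Sdf2l1 differed by 0.59 ± 0.19, both with an edgeR adjusted p of 0.670. Androgen response genes had 8 of 15 positive (0.01 and 0.40), and immediate early genes 2 of 10 (-0.13 and -0.19).

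**Figure D5:**
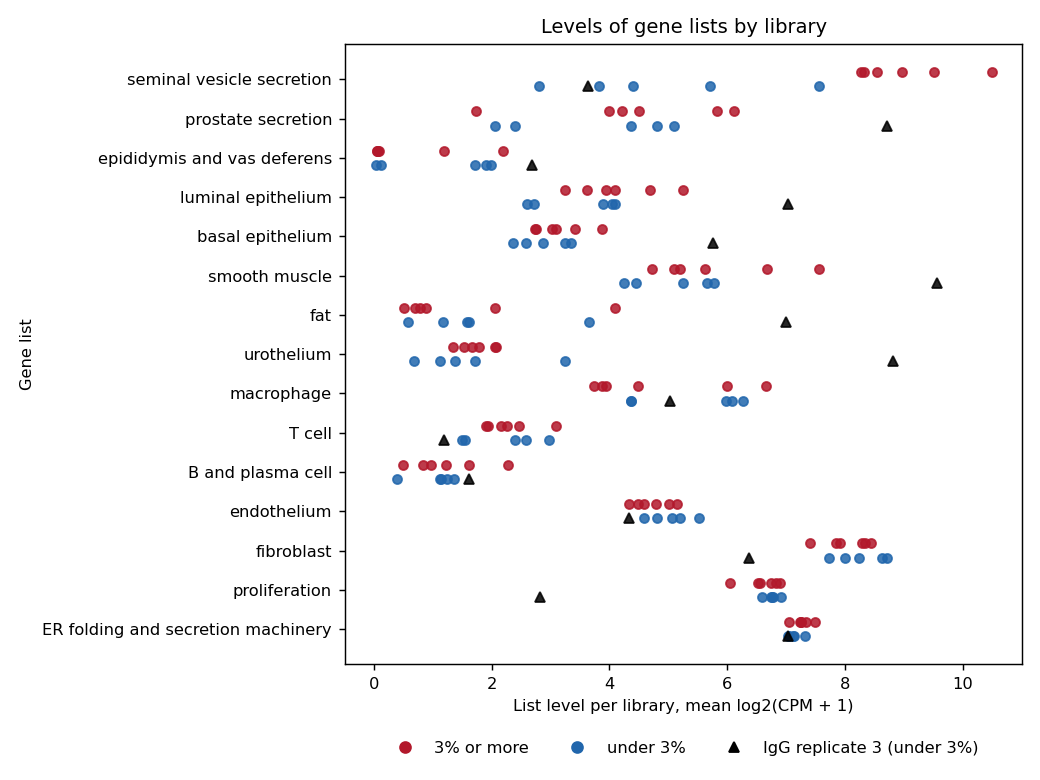
Points give the level of 15 gene lists (mean log2(CPM + 1), horizontal axis) in each library, red at 3% or more, blue under 3%, and a black triangle for IgG replicate 3. The seminal vesicle list separates the classes by its choice, luminal and muscle lists overlap, and IgG replicate 3 lies far from the other 11 in the epithelial, smooth muscle, urothelium and proliferation lists.

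Whether the difference between the classes itself varied with treatment was asked with interaction terms. With Lupron, edgeR called 0 of 15082 genes (0%), with 79 at an unadjusted p under 0.05 (0.524%). With anti-CSF1 it called 0 (0%), with 215 at that level (1.43%). DESeq2 was not run for these terms. Each treatment held 1 or 2 libraries of a class.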

How the data were processed

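Bulk RNA-seq libraries of 12 tumours were used. The deposited table holds raw counts for 23479 gene symbols, whole numbers with no normalization by the authors. The tools used were bcl2fastq 2.20.0.422 for demultiplexing, cutadapt 1.8.1 for trimming and HTSeq 0.6.1 for counting, with build mm10, per the submitters' processing notes. Which aligner, annotation and strand setting were used is not given in these sources, so antisense and overlapping genes are uncertain.

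High and low libraries were compared with edgeR 4.0.16 in R 4.3.3 (filter on low counts by the 4 treatment groups, TMM, robust quasi-likelihood fit, treatment plus class, 7 residual degrees of freedom, two-sided, threshold 0.05 on the Benjamini-Hochberg adjusted p). Exact permutation tests used scipy 1.17.1. Alternatives included DESeq2 1.42.0, other scalings, filters, thresholds and leaving out each library. Positions and promoters are from RefSeq GRCm38.p6. The classes, the 25 gene lists (273 symbols, 4 matched by an older name and 1 not in the table) and the alternatives were chosen with earlier results of these data known. Genes named were the seminal vesicle list, 8 per direction by smallest p (predicted and clone-named genes left out) and up to 4 per list, besides those said to be chosen after their values were seen. All 66 pairs of libraries differed beyond sampling noise (chi-square divided by its degrees of freedom at least 42.3). On simulated counts for this comparison (14907 genes, 100 changed at each size), the test recovered 78% of 4-fold and 94% of 16-fold changes, with 8 false calls. Those counts had a single mean per gene and class, so the rates do not carry over to genes as uneven as Svs2. In the tumours Svs2 was 48.3-fold higher in the high class and was not called (edgeR adjusted p = 0.670).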

Additional observations from a re-analysis of the deposited data

Results flagged for a closer look

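The levels of 25 gene lists, as means of log2(CPM + 1), were checked in both classes for a single library far from the other 5 (50 groups). The log2 share, integrity number, 28S to 18S ratio and RNA concentration were checked likewise (8 groups). Chance flags about 1 in 20 such groups. Of 58 groups examined 9 were flagged, 7 of them through IgG replicate 3 in the low class. That library had the highest level for luminal epithelium (7.04, others 2.60 to 4.10), basal epithelium (5.77, others 2.36 to 3.35), smooth muscle (9.56, others 4.26 to 5.78), skeletal muscle (3.40, others 0.592 to 0.998), urothelium (8.82, others 0.688 to 3.24) and Wolffian duct transcription factors (5.03, others 2.12 to 3.20). It had the lowest level for proliferation (2.83, others 6.60 to 6.91). In the high class, IgG replicate 2 had the highest level of the skeletal muscle list (1.32, others 0.603 to 0.803). In the low class, anti-CSF1 replicate 3, the library with the lowest share of seminal vesicle transcripts, had the highest level of the folding and secretion machinery list (7.33, others 7.04 to 7.14).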

How the results depend on the processing

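The comparison of the classes called 0 genes with edgeR, 47 with DESeq2 and 5 with the log2 share as a number, and 0 to 2 when 1 library was left out. The 2 calls came without IgG replicate 1 and were Pate6 (log2 difference 5.14) and Spink5. The fit on the log2 share called 5 genes, 4 to 14 when 1 library was left out (14 when it was IgG replicate 3, and 10 when it was anti-CSF1 replicate 3 or Lupron replicate 1) and 1, Pate6, with the seminal vesicle list removed before scaling. Same-numbered libraries did not pair (8 of 18 pairs had correlated deviations above 0.1). With replicate number as a block the classes gave 0 calls, the log2 share gave 2, Pate4 and Svs5, without Pate6 (slope 0.79, edgeR adjusted p = 0.188), and both interactions 0. The interactions gave 0 to 1 call each without 1 library, Il1rl1 in both cases. Of 742 gene values under alternatives, for 31 genes, 712 kept direction and call, 28 gained a call and 2 reversed, Bhlha15 without the treatment term (-1.39) and Akr1b7 with the replicate block (3.87), where the cause was not tested. The log2 share differed by 0.76 to 2.50 with Lupron and by -1.22 to 1.02 with anti-CSF1 when 1 library was left out, reversing at 0.34, 1.02, 0.64 and 0.23. The same ranges were -0.253 to 0.0667 for the integrity number (0.0667 without IgG replicate 2), -0.41 to -0.19 for the 28S to 18S ratio and -38.2 to -4.43 ng per µl for concentration. The biological coefficient of variation was 0.461, and 0.337 without IgG replicate 3.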

Other observations

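Some genes outside the named sets had no overlap between the classes. On the higher side these were Anxa9, an annexin (log2 difference 1.63), the chemokine gene Ccl17 (1.29), the cargo receptor gene Mcfd2 (0.54), the mitochondrial ribosome gene Mrps18a (0.58), the iron transporter gene Slc11a2 (0.47), Narfl (0.41), and the predicted genes Gm694 (3.79) and 4930520O04Rik (2.42). DESeq2 called 2 of them, Anxa9 and 4930520O04Rik. On the lower side were Podxl2 (-1.36), the heparan sulfate enzyme gene Hs3st3a1 (-1.25), the arginine deiminase gene Padi2 (-0.69), Nfkbil1 (-0.40), the Hippo pathway kinase gene Lats2 (-0.37) and Ccdc93 (-0.14). None had an edgeR adjusted p under 0.05.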
